A study of Mus musculus with 16 samples.

Results

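The 36 genes described here encode the enzymes with which the mouse liver disposes of amino acid nitrogen and makes glucose. They were chosen by function, with earlier results of these data known, and found by gene symbol. All 36 were among the 47729 genes counted in each library. By role, 6 belong to the urea cycle, 4 to gluconeogenesis, 5 to the breakdown of the aromatic amino acids, 4 to histidine breakdown, 6 to methionine metabolism and transsulfuration, 5 to serine, glycine and lysine metabolism, and 6 to glutamate, glutamine and proline metabolism and transamination. RNA of 4 liver cell populations was sequenced: endothelial cells (ECs, sorted as UV-negative and Pan-endo-positive), hepatic stellate cells (HSCs, sorted by their UV autofluorescence), Kupffer cells (UV-negative and F4/80-positive) and hepatocytes, which were separated by centrifugation. Each population had 2 libraries labelled WT and 2 labelled KO, 16 in all. The KO mice carried Zeb2 with a floxed exon 7 and the tamoxifen-inducible Cdh5-CreERT2, in which the endothelial Cdh5 promoter drives the recombinase, on a background with a Cre-dependent eGFP reporter in R26R, and the WT controls were littermates without Cre. Both received 2 mg of tamoxifen a day for 5 days, the study used 8-week-old males unless stated otherwise, and gene expression was examined 2 weeks after tamoxifen in livers without an injury model. The labels do not say which libraries came from the same mouse or from pooled mice, so the p-values measure only the spread between these samples.

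Hepatocytes break down surplus amino acids by removing their nitrogen and feeding the carbon skeletons into energy metabolism or new glucose. The ammonia is captured by Cps1 in mitochondria and converted to urea through Otc, Ass1, Asl and Arg1, while Pcx, Pck1, Fbp1 and G6pc bypass the irreversible steps of glycolysis so that glucose can be released to the blood. Many of these enzymes are concentrated in hepatocytes near the portal vein, and Glul, which traps the remaining ammonia as glutamine, is confined to those around the central vein.

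The libraries held 12872706 to 15690506 reads on genes (median 14806833), so that 3 reads corresponded to 0.191 to 0.233 CPM, the reads on a gene per 1e6 reads on all genes. Alignments that were not unique were not counted for any gene. They made up 38.2% to 47.9% of all entries tallied by the counting program in hepatocytes and 24.8% to 47.9% over all libraries. Summed marker genes of each population lay at 82.4% to 123% of their WT mean in that population's own libraries, so that each population showed its own markers. Summed hepatocyte markers were also present in every sorted population, at 1.97% to 24.6% of the WT hepatocyte sum in ECs, 0.581% to 7.61% in HSCs and 5.81% to 11.5% in Kupffer cells. Zeb2 itself stood at 106 and 106 CPM in the WT EC libraries and at 199 and 130 CPM in those labelled KO. The count covers the whole gene and does not resolve exon 7, and the groups are therefore called by their labels throughout. Paired values are given in the order of the library numbers: WT 34 and 38 and KO 6 and 46 for ECs, WT 32 and 40 and KO 8 and 20 for HSCs, WT 31 and 39 and KO 27 and 43 for Kupffer cells, and WT 29 and 33 and KO 25 and 41 for hepatocytes.

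In WT hepatocytes the members spanned a wide range of abundance per exon length, expressed as CPM divided by the exonic length in kilobases (RPKM, mean ± SD, n = 2). Gnmt, which uses up the methyl donor S-adenosylmethionine by methylating glycine, was the most abundant at 3295 ± 86.6 RPKM. It was followed by Fbp1, the fructose bisphosphatase of gluconeogenesis, at 1477 ± 92.4. Below these came 5 enzymes whose means lay within the spread of one another: Hpd at 1080 ± 52.9, Ass1 at 1014 ± 218, Mat1a at 1004 ± 411, Tat at 974 ± 193 and Pck1 at 870 ± 413. At the low end, Gldc of the glycine cleavage system stood at 12.0 ± 1.24 RPKM, the serine dehydratase-like Sdsl at 17.8 ± 1.45 and the proline dehydrogenase Prodh at 21.2 ± 6.11.

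Within the urea cycle, the argininosuccinate synthase Ass1 was the most abundant enzyme, and Arg1, the arginase that releases urea, followed with 623 ± 179 RPKM. Cps1, the ammonia-fixing entry enzyme, stood at 214 ± 124 RPKM, Otc at 188 ± 16.2 and Asl at 155 ± 40.4, and these 3 did not differ beyond their spread. Nags, which makes the activator that Cps1 requires, was the lowest of the cycle at 39.4 ± 9.22. Of the gluconeogenic enzymes, G6pc, the glucose-6-phosphatase of the last step, reached 447 ± 221 RPKM and pyruvate carboxylase, Pcx, 134 ± 14.0. The SD of Cps1, Pck1, G6pc and Mat1a was large beside the mean. Cps1 was counted at 1675 and 700.4 CPM in these libraries, Mat1a at 4492 and 2476 CPM, Pck1 at 1980 and 3984 CPM and G6pc at 702 and 1456 CPM, so that the library with more Cps1 and Mat1a had less Pck1 and G6pc.

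Tyrosine and tryptophan breakdown was represented by Tat, Hpd, Fah at 461 ± 17.4 RPKM, Tdo2 at 306 ± 48.1 and Hgd at 245 ± 26.6. The histidine pathway ran from Hal, the histidine ammonia-lyase, at 121 ± 17.0 RPKM through Uroc1 at 92.2 ± 11.8 and Amdhd1 at 154 ± 6.42 to Ftcd at 216 ± 18.1. In methionine metabolism, Bhmt, which remethylates homocysteine, stood at 275 ± 94.6 RPKM, and the transsulfuration enzymes Cth and Cbs at 202 ± 19.9 and 107 ± 1.79. Ahcy, which hydrolyses S-adenosylhomocysteine, stood at 106 ± 12.9; it has processed copies in the genome, and reads shared with them were not counted. The glyoxylate-detoxifying transaminase Agxt reached 437 ± 40.2 RPKM, Aass, the first enzyme of lysine breakdown, 97.3 ± 12.7, and the serine dehydratase Sds 89.2 ± 18.2. Of the last role, Oat, the ornithine aminotransferase, stood at 164 ± 58.0, Gpt at 116 ± 35.1, Got1 at 84.5 ± 15.8, the liver glutaminase Gls2 at 41.9 ± 6.35 and glutamine synthetase, Glul, at 41.1 ± 6.31. Exons of Glul, Sds, Gls2, Nags and Bhmt overlap those of another annotated gene, and the strand setting of the counting is not given in the sources used here, so the values of these 5 are less certain.

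**Figure D1:**
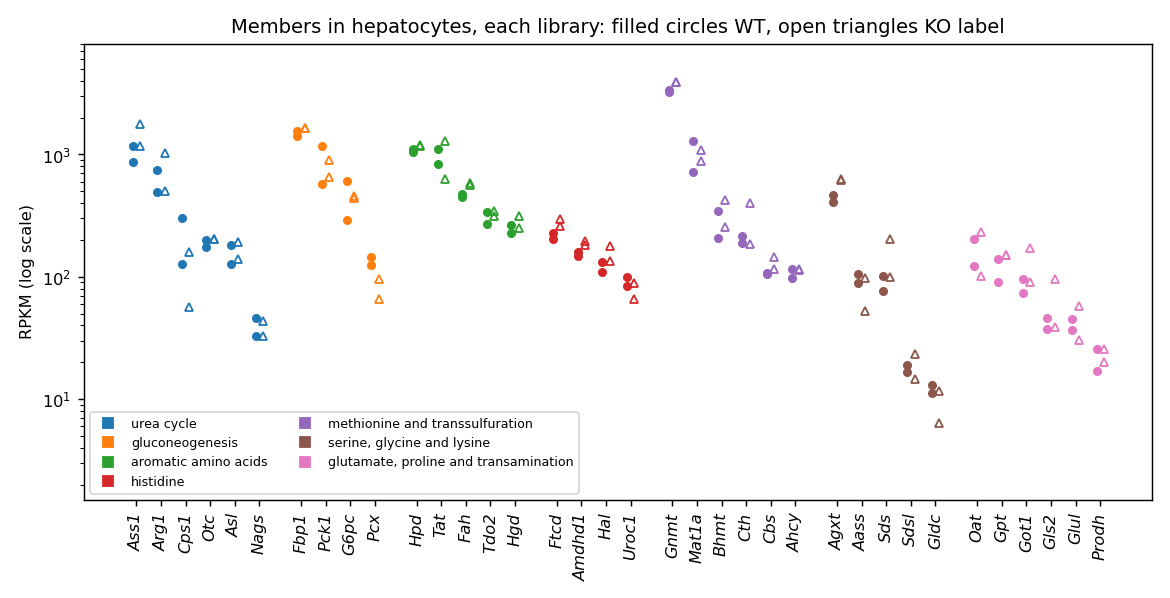
Level of the 36 members in each of the 4 hepatocyte libraries, in RPKM on a log axis, grouped by role; filled circles are WT libraries and open triangles libraries labelled KO. Gnmt was highest and Gldc lowest in WT, and circles and triangles of most members lie close together.

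To ask how far these genes belong to hepatocytes, WT hepatocytes were compared with each sorted WT population across all 15979 genes with sufficient counts. Against ECs all 36 members were higher in hepatocytes, where 20.4% of all genes tested were called higher and 23.2% lower, with a median log2 difference of 3.80 over the members against -0.29 over all genes (edgeR's quasi-likelihood test, Benjamini-Hochberg adjusted p under 0.05). Against Kupffer cells all 36 were higher as well, with 20.1% of all genes called higher, and the median was 4.65 against -0.10. Against HSCs 35 were higher, with 18.9% of all genes called higher and a median of 4.95 against -0.42, and the remaining member was Oat. These differences depend on how the libraries are scaled. The 10 most abundant genes took 17.8% to 19.4% of reads in hepatocytes and 8.62% to 10.3% in ECs. With library totals as the only scaling, the median over all genes shifted to -1.62 against ECs, -1.48 against HSCs and -1.08 against Kupffer cells, the calls over all genes moved from 3255 higher and 3705 lower to 1331 and 7436 against ECs, from 3025 and 3658 to 1644 and 6960 against HSCs, and from 3218 and 3271 to 1844 and 5853 against Kupffer cells, and 32, 36 and 34 members were called, of which 1, Oat against HSCs, was lower.

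The size of the difference varied among members. The largest against ECs and Kupffer cells was that of Nags, at log2 4.78 ± 0.48 (SE, adjusted p = 0.000419) and 5.38 ± 0.50 (adjusted p = 0.000251), and the largest against HSCs that of Bhmt, at 5.60 ± 0.65 (adjusted p = 0.000431). Cps1 differed by log2 4.15 ± 0.69 from ECs, 4.44 ± 0.70 from HSCs and 4.95 ± 0.71 from Kupffer cells, with adjusted p of 0.00228, 0.00172 and 0.00118. The smallest difference against ECs, and against Kupffer cells, was that of Glul, and the smallest against HSCs that of Oat.

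In the sorted populations most members were present at a small and similar share of their hepatocyte level. As a percentage of the mean CPM in WT hepatocytes, the median over the 36 members was 12.1% and 25.0% in the WT EC libraries, 4.48% and 9.25% in the WT HSC libraries and 5.67% and 10.2% in the WT Kupffer cell libraries. In the libraries labelled KO it was 3.75% and 2.04% in ECs, 0.993% and 1.69% in HSCs, and 12.4% and 13.5% in Kupffer cells. The median of 11 hepatocyte marker genes outside the members moved with these values library by library: 10.8% and 24.6% in WT ECs, 3.31% and 7.03% in WT HSCs, 5.24% and 7.99% in WT Kupffer cells, and, under the KO label, 2.94% and 1.93% in ECs, 0.605% and 1.21% in HSCs and 9.08% and 10.9% in Kupffer cells. None of these 11 markers was at 0 in both libraries of any group. These shares depend on the scaling: with TMM, the mean of the library medians went from 18.6% to 8.27% in WT ECs, from 2.90% to 1.38% in ECs labelled KO, from 1.34% to 0.764% in HSCs labelled KO, from 7.92% to 4.72% in WT Kupffer cells and from 12.9% to 7.56% in Kupffer cells labelled KO. In bulk libraries such as these, fewer cells of a type and less RNA per cell cannot be told apart.

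The roles differed little in this share, apart from the last. In WT ECs the median share was 10.5% and 22.01% for the urea cycle, 15.5% and 25.6% for gluconeogenesis, 11.1% and 20.1% for the aromatic amino acids, 13.3% and 26.4% for histidine, 11.4% and 20.5% for methionine and transsulfuration and 12.9% and 30.0% for serine, glycine and lysine. For glutamate, proline and transamination it was 30.8% and 43.2%. The raised values belonged to a few members with a level of their own outside hepatocytes, described below.

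**Figure D2:**
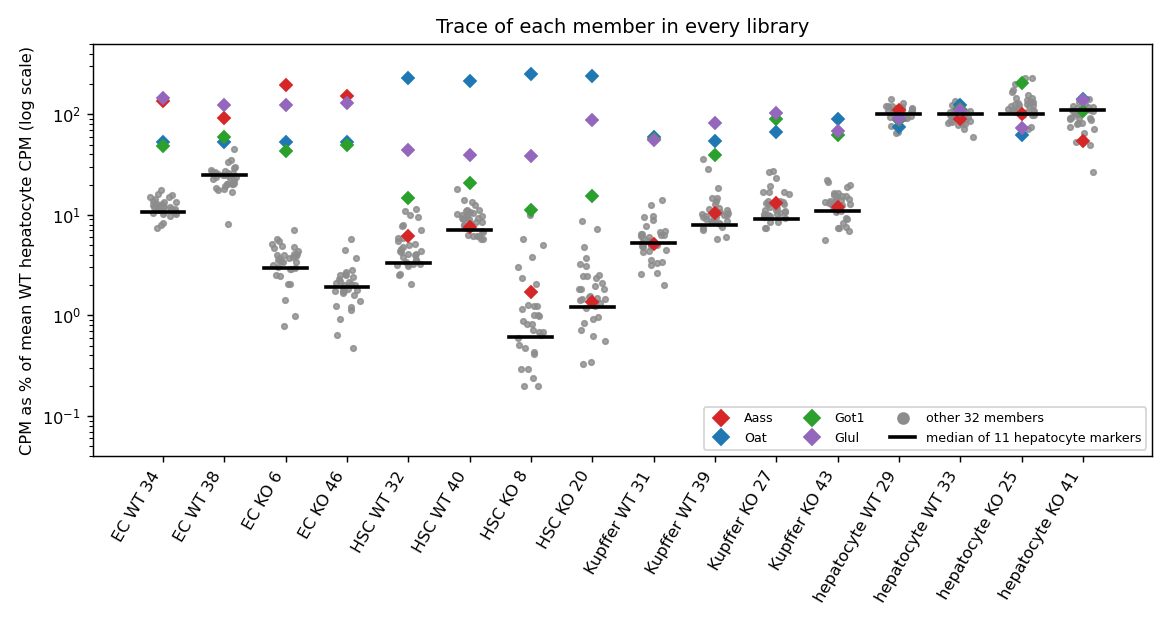
CPM of each member as a percentage of its mean in WT hepatocytes, on a log axis, in each library. Grey points are 32 members, diamonds are Aass (red), Oat (blue), Got1 (green) and Glul (purple), and the black line is the median of 11 hepatocyte markers; a value of 0, Sdsl in the EC library KO 46, has no place on the axis. The grey points follow the line, near 12% and 25% in WT ECs and near 2% to 4% in ECs labelled KO, while the diamonds lie apart from it in 1 or more populations.

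Members whose mean CPM in a sorted WT population was at least 50% of that in WT hepatocytes numbered 4: Aass, Oat, Got1 and Glul. Aass was counted at 506 and 337 CPM in WT ECs and at 406 and 337 CPM in WT hepatocytes, which overlap. In HSCs it stood at 23.1 and 28.3 CPM and in Kupffer cells at 19.2 and 38.4 CPM, far below both. The composition-corrected difference between hepatocytes and ECs was log2 1.15 ± 0.37 (SE, adjusted p = 0.0361), but it was -0.18 with library totals as the only scaling, and the call was lost without either WT hepatocyte library, either WT HSC library or WT EC library 38, at log2 0.78 to 1.22.

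Oat, which links ornithine to glutamate and proline, was highest in HSCs by CPM, at 881 and 828 in WT libraries. It stood at 291 and 484 CPM in hepatocytes, at 208 and 204 in ECs and at 229 and 211 in Kupffer cells. On the CPM scale HSCs lay above hepatocytes with no overlap, whereas the composition-corrected difference, log2 -0.05 ± 0.35 (adjusted p = 0.924), was not past the threshold and was called lower in hepatocytes with library totals as the only scaling.

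Glul stood at 122 and 151 CPM in WT hepatocytes, 200 and 168 CPM in ECs, 60.4 and 53.4 CPM in HSCs and 75.5 and 113 CPM in Kupffer cells. By CPM it was therefore higher in ECs than in hepatocytes, while after composition correction hepatocytes were higher by log2 0.92 ± 0.30 (adjusted p = 0.0367), a difference that turned to -0.43 with library totals as the only scaling. This call was lost, at log2 0.68 to 1.13, without any 1 of WT EC libraries 34 and 38, both HSC libraries, both hepatocyte libraries and Kupffer cell library 39. Got1, the cytosolic aspartate aminotransferase, which serves many tissues, stood at 186 and 243 CPM in hepatocytes, 103 and 127 in ECs, 121 and 84.2 in Kupffer cells and 31.3 and 44.4 in HSCs. Its hepatocyte excess was log2 2.26 ± 0.37 over ECs (adjusted p = 0.00223), 3.59 ± 0.39 over HSCs (adjusted p = 0.000357) and 2.03 ± 0.37 over Kupffer cells (adjusted p = 0.00349).

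**Figure D3:**
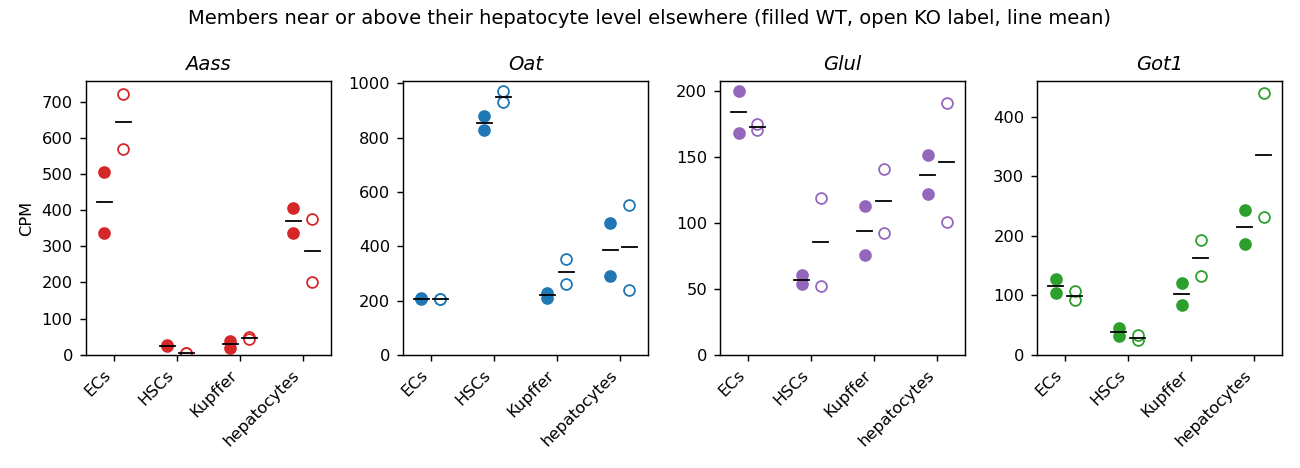
CPM of Aass, Oat, Glul and Got1 in all 16 libraries by population; filled symbols are WT, open symbols libraries labelled KO and lines group means. Aass is high in ECs and hepatocytes, Oat is highest in HSCs on this scale, and the EC libraries of both labels lie close together for Oat, Glul and Got1; on the composition-corrected scale hepatocytes exceed ECs in Aass and Glul, which reverses with library totals as the only scaling, and Oat in hepatocytes and HSCs is not separated.

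To show the proximal sequence from which 2 hepatocyte-restricted members and 3 with a level elsewhere are transcribed, 120 bases upstream of the RefSeq start are printed (GRCm38.p6, 5′ to 3′ on the gene's strand), with CG dinucleotides in capitals. RefSeq promoters were found for 27 of the 36 members, and Arg1, Asl, Cps1, Cth, Gls2, Gpt, Mat1a, Sds and Sdsl had none in the table used. The stretches are chr2:173152928-173153047 on the plus strand for Pck1, ending 25 bases before its start, chrX:10252185-10252304 on the plus strand for Otc, chr6:23132987-23133106 on the minus strand for Aass, chr7:132576399-132576518 on the minus strand for Oat and chr1:153899809-153899928 on the plus strand for Glul.
Pck1: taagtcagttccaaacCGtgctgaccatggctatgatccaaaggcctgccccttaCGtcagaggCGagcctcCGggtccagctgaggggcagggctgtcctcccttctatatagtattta
Otc: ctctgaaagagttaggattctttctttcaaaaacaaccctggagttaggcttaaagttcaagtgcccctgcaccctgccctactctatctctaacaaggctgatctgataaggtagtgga
Aass: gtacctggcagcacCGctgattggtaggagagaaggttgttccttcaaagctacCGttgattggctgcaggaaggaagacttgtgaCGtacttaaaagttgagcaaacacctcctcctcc
Oat: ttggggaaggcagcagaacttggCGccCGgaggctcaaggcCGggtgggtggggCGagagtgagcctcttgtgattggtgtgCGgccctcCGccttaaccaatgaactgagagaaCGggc
Glul: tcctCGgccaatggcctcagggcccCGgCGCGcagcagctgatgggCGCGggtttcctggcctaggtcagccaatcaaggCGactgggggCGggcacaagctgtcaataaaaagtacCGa

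The printed stretch held 9 CG dinucleotides in Glul, 7 in Oat, 4 in Pck1, 3 in Aass and 0 in Otc. Over 250 upstream bases, the ratio of observed to expected CG was 0.629 in Oat, 0.601 in Glul, 0.31 in Pck1, 0.26 in Aass and 0.0844 in Otc, with a median of 0.373 over all 32851 promoters. The cAMP response element motif TGACGTNA, searched on both strands, was found in Pck1 alone among the 27 members with a promoter, as TTACGTCA with its first base 93 bases before the start, and in 2.52% of all promoters. The TATA motif TATAAA was found in 5 of these 27 members, Ftcd, G6pc, Hal, Hgd and Tdo2, in none of Aass, Oat, Got1 and Glul, and in 12.4% of all promoters. None of the 27 held both motifs. These matches describe letters in the window and do not show binding.

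Whether the KO label moved the members was tested within each population. In ECs 19 of the 36 members fell under the KO label and none rose (edgeR's quasi-likelihood test, adjusted p under 0.05), where 1.97% of all genes tested were called lower and 0.116% higher. Their median log2 fold change was -2.58 against -0.01 over all genes, and 31 members were lower at an unadjusted p under 0.05, as were 10.1% of all genes. In 32 members both KO libraries lay below both WT libraries, as in 24.1% of all genes, and in 1, Aass, above them, as in 24.2%. All 4 gluconeogenic enzymes and all 5 enzymes of aromatic amino acid breakdown fell, as did 4 of 6 of the urea cycle, 2 of 4 of histidine breakdown, 2 of 6 of methionine metabolism, 1 of 5 of serine, glycine and lysine metabolism (Agxt) and 1 of 6 of the last role (Gpt). Hepatocyte markers moved in the same direction: 10 of 11 fell, their median was -2.89, and their summed level was 13386 to 28679 CPM in WT and 2298 to 3273 CPM under the KO label, with none of them at 0 in both libraries of a label. Among 804 other tested genes that were enriched in hepatocytes, 239 fell and the median was -2.45, while the median of the EC markers was 0.01. The summed EC markers were higher without overlap, at 15654 to 18523 CPM in WT and 20246 to 21024 CPM under the KO label. Summed markers of other cell types also differed without overlap: HSC markers stood at 1341 to 1623 CPM in WT and 591 to 859 CPM under the KO label, lymphocyte markers at 74.7 to 160 and 40.0 to 48.0, cholangiocyte markers at 265 and 130 to 207, and Kupffer cell markers, in the other direction, at 410 to 704 and 947 to 966. Most of the cholangiocyte sum was Spp1, at 225 and 233 CPM in WT and at 178 and 112 CPM under the KO label. The cholangiocyte markers Krt19, Krt7 and Epcam overlapped between labels. Sox9, also of this list, was lower without overlap, at 19.8 and 16.1 CPM in WT and 4.46 and 2.71 CPM under the KO label. The part of the cell types named here in the members' fall was not tested.

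The largest falls in ECs that passed the test were those of G6pc and Pck1. Pck1, the phosphoenolpyruvate carboxykinase of gluconeogenesis, fell from 521 and 684 CPM in WT to 42.5 and 34.1 CPM in the KO libraries, a log2 difference of -3.98 ± 0.27 (SE, adjusted p = 0.0190 in edgeR's test). G6pc went from 162.5 and 317 CPM to 8.57 and 17.9, log2 -4.15 ± 0.51 (adjusted p = 0.0290), the largest fall among the members. The third in size by fold was Sdsl, which had few reads and did not pass the test, at 3.21 and 8.00 CPM in WT against 0.766 and 0 CPM in the KO libraries (log2 -3.87 ± 1.38, adjusted p = 0.270). Pcx fell by 3.24 and Fbp1 by 2.88 on the log2 scale.

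Of the urea cycle, Cps1 fell from 135.5 and 201 CPM to 29.2 and 14.3, log2 -2.96 ± 0.37 (adjusted p = 0.0290). Ass1 fell from 256 and 584 CPM to 90.8 and 58.5, log2 -2.50 ± 0.43 (adjusted p = 0.0454), while Arg1, with 109 and 345 CPM in WT against 61.1 and 36.2 in the KO libraries, did not pass the test (log2 -2.22 ± 0.54, adjusted p = 0.121). Otc and Asl also fell, by 2.60 and 1.74 on the log2 scale, and Nags was just outside the threshold at -3.02 (adjusted p = 0.0542). The WT libraries were unequal in most of these genes, with 38 above 34, and the KO libraries lay below both.

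Among the enzymes of amino acid breakdown, Tat, the tyrosine aminotransferase, fell from 226 and 471 CPM to 48.0 and 42.6 (log2 -2.94 ± 0.37, adjusted p = 0.0290). Tdo2, the tryptophan dioxygenase, fell from 128 and 209 CPM to 38.0 and 27.2 (log2 -2.37 ± 0.30, adjusted p = 0.0290). Hal stood at 86.2 and 233 CPM in WT and at 25.9 and 11.9 CPM under the KO label, with an adjusted p of 0.0507. In the histidine pathway Uroc1 and Ftcd fell, by 3.79 and 2.56 on the log2 scale, so that both labels were separated in all 4 of its members while 2 passed the test.

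Mat1a, which makes S-adenosylmethionine, stood at 260 and 709 CPM in WT and at 124 and 22.4 under the KO label (log2 -2.76 ± 0.81, adjusted p = 0.187). Bhmt stood at 193 and 296 CPM against 76.5 and 32.6 (log2 -2.18 ± 0.41, adjusted p = 0.0581). Cbs, which commits homocysteine to transsulfuration, stood at 81.1 and 204 CPM against 31.6 and 20.2 (log2 -2.46 ± 0.45, adjusted p = 0.0557). These 3 did not pass the test although their groups did not overlap, and of this role Gnmt and Ahcy fell, by 2.95 and 1.81.

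The 4 members with a level of their own outside hepatocytes did not follow. Oat stood at 208 and 204 CPM in WT ECs and at 206 and 205 under the KO label, log2 -0.0034 ± 0.20 (adjusted p = 0.997). Got1 stood at 103 and 127 CPM against 91.6 and 107, log2 -0.20 ± 0.23 (adjusted p = 0.745), and Glul at 200 and 168 CPM against 170.5 and 175, log2 -0.09 ± 0.22 (adjusted p = 0.894). These groups overlapped. Aass, in contrast, had both KO libraries, at 721 and 569 CPM, above both WT libraries, at 506 and 337 CPM, and its log2 fold change of 0.60 ± 0.29 did not pass the test (adjusted p = 0.401).

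The count of 19 rested on both KO libraries: it was 5 without KO 6 and 0 without KO 46, and 28 without WT 34 and 21 without WT 38, where 0.33%, 0.0126%, 3.84% and 1.96% of all genes were called lower. It was 11 with library totals as the only scaling, which called 1.21% of all genes lower, and 30 with DESeq2, which called 5.74% of all genes lower.

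**Figure D4:**
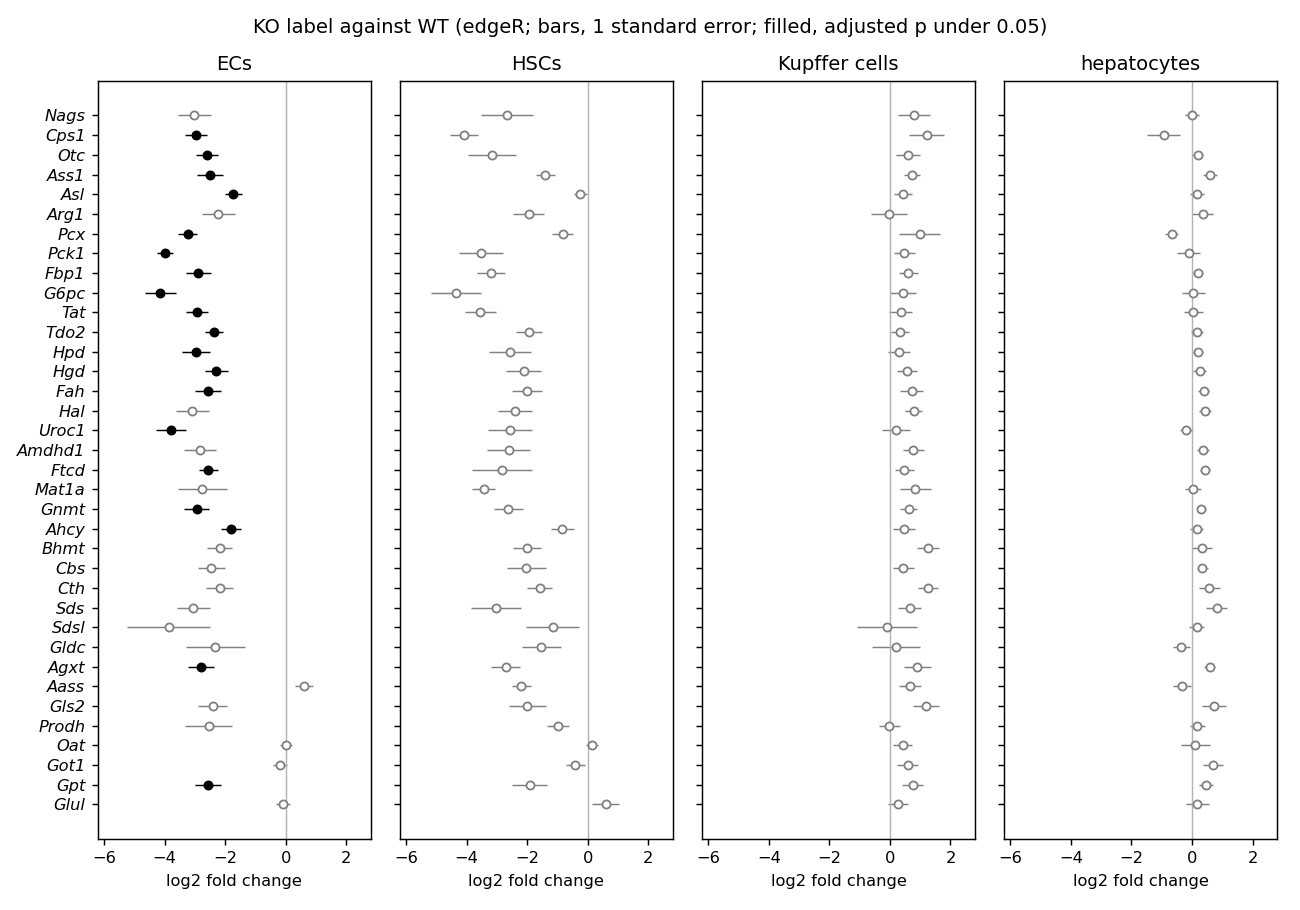
Log2 fold change of each member between libraries labelled KO and WT in ECs, HSCs, Kupffer cells and hepatocytes, with bars of 1 SE; filled points have an adjusted p under 0.05 in edgeR's quasi-likelihood test (2 libraries a group). Filled points occur in ECs only, where 19 members lie between log2 -4.15 and -1.74, and Aass, Oat, Got1 and Glul lie near 0 or above it.

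In HSCs none of the members, and 0.0% of all genes, passed the adjusted test in either direction. At an unadjusted p under 0.05, 28 members were lower under the KO label, as were 7.0% of all genes, and DESeq2 called 23 members lower and 2.71% of all genes. The median log2 fold change of the members was -2.08 against 0.02 over all genes, and both KO libraries lay below both WT libraries in 32 members, against 19.3% of all genes. Hepatocyte markers moved alike, with 11 of 11 at an unadjusted p under 0.05, a median of -2.51 and a summed level of 3698 to 8851 CPM in WT and 676 to 1724 CPM under the KO label. Summed EC markers (366 to 674 CPM in WT and 276 to 314 under the KO label), cholangiocyte markers (87.8 to 98.6 and 41.9 to 45.5) and lymphocyte markers (17.6 to 19.9 and 3.87 to 7.05) were lower without overlap too. Summed HSC markers were higher without overlap, at 75632.5 to 80530.7 CPM in WT and 90230 to 90819 CPM under the KO label. Most of the cholangiocyte sum was again Spp1, at 85.7 and 74.7 CPM in WT and at 32.2 and 38.0 CPM under the KO label. Krt19 and Krt7 overlapped between labels. Sox9 was lower without overlap, at 9.67 and 10.2 CPM in WT and at 4.98 and 4.98 CPM under the KO label. So was Epcam, which had few reads, at 0.704 and 0.768 CPM against 0 and 0.622 CPM. The part of the cell types named here in the members' values was not tested.

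By size, G6pc differed most in HSCs, with 22.2 and 109 CPM in WT against 2.56 and 3.73 CPM in the KO libraries (log2 -4.37 ± 0.83, adjusted p = 0.313). Cps1 stood at 92.4 and 134 CPM against 9.68 and 3.94 (log2 -4.09 ± 0.46, adjusted p = 0.283), and Tat at 75.5 and 159 CPM against 6.91 and 13.0 (log2 -3.55 ± 0.52, adjusted p = 0.297). In each of these genes the groups were far apart and the adjusted p stayed above the threshold. Pck1 stood at 105 and 289 CPM in WT and at 8.71 and 25.2 CPM under the KO label (log2 -3.52, adjusted p = 0.339), and Mat1a at 166 and 295 CPM against 17.8 and 24.7 (log2 -3.44, adjusted p = 0.283). Ass1, with 142 and 253 CPM against 75.01 and 75.8, and Arg1, with 98.3 and 149 CPM against 17.6 and 45.4, had smaller log2 differences of -1.40 and -1.96. Lower and non-overlapping in the same way were Tdo2, with 38.5 and 73.5 CPM against 11.6 and 17.5, Hal, with 28.7 and 73.1 against 6.77 and 12.3, Bhmt, with 39.5 and 100.2 against 16.0 and 18.7, and Cbs, with 35.2 and 75.1 against 6.64 and 19.9.

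At the other end in HSCs, Glul stood at 60.4 and 53.4 CPM in WT and at 51.9 and 119 CPM under the KO label, so that its log2 fold change of 0.59 ± 0.44 (adjusted p = 0.805) came from library KO 20 and was -0.22 without it. Oat stood at 881 and 828 CPM in WT and at 970 and 931 CPM under the KO label (log2 0.13 ± 0.20, adjusted p = 0.910). Asl, the argininosuccinate lyase, stood at 75.2 and 93.2 CPM against 78.6 and 65.7 (log2 -0.24 ± 0.21, adjusted p = 0.831), and Got1 at 31.3 and 44.4 CPM against 24.1 and 32.8 (log2 -0.42 ± 0.31, adjusted p = 0.806). The labels overlapped in Glul, Asl and Got1, and Oat was the member with both KO libraries above both WT libraries, as in 20.5% of all genes. Aass, which is at trace level in HSCs, stood at 23.1 and 28.3 CPM in WT and at 6.36 and 5.05 CPM under the KO label, log2 -2.20 ± 0.32 (adjusted p = 0.297).

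In the HSC libraries labelled KO, where the hepatocyte share was lowest, a few members stood out from the common share. The median of the 32 members without a level of their own was 0.853% and 1.55% of the WT hepatocyte level in these libraries. Asl lay at 10.5% and 8.79%, Pcx at 9.88% and 4.81% and Prodh at 4.97% and 7.32%, each at least 3 times the median in both libraries, and G6pc lay below it at 0.237% and 0.346%. This contrast was chosen after the values were seen.

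In Kupffer cells the values leaned the other way. None of the 36 members, and 0.0% of all genes, passed the adjusted test with edgeR, and DESeq2 called 0 members. At an unadjusted p under 0.05, 5 members were higher under the KO label and none lower, against 3.35% and 1.74% of all genes, and the median log2 fold change was 0.59 against -0.02. Both KO libraries lay above both WT libraries in 23 members, against 20.5% of all genes, and the reverse, seen in 16.1% of all genes, occurred in none. The hepatocyte markers had a median of 0.57, with a summed level of 6758 to 9863 CPM in WT and 11012 to 13401 CPM under the KO label, and EC markers a median of 0.78. Summed EC markers (729 to 998 CPM in WT and 1079 to 1261 under the KO label) and neutrophil markers (87.2 to 88.8 and 92.4 to 192) were higher without overlap. Summed Kupffer cell markers were lower without overlap, at 41736.5 to 51117 CPM in WT and 38249 to 40192 CPM under the KO label. The part of these cell types in the members' values was not tested.

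The largest log2 fold changes in Kupffer cells belonged to Cth, Bhmt and Cps1. Cth, the cystathionine gamma-lyase, stood at 29.1 and 32.3 CPM in WT and at 94.4 and 60.03 CPM under the KO label (log2 1.27 ± 0.33, unadjusted p = 0.00732, adjusted p = 0.933 in edgeR's test). Bhmt stood at 53.2 and 111 CPM against 220 and 181 (log2 1.26 ± 0.37), and Cps1 at 31.0 and 125 CPM against 164 and 197 (log2 1.22 ± 0.58). The WT libraries of Cps1 lay farther from each other than the groups lay apart. Cps1 had an unadjusted p of 0.0772, and besides Cth and Bhmt the members below 0.05 were Gls2, Ass1, with 191 and 224 CPM against 394 and 321, and Hal, with 63.2 and 92.1 CPM against 130 and 144. Mat1a at 110 and 362 CPM against 375 and 469, Tdo2 at 57.1 and 88.3 against 99.7 and 89.1, Oat at 229 and 211 against 261 and 351 and Got1 at 121 and 84.2 against 193 and 133 did not overlap either.

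In Kupffer cells the WT and KO values overlapped in the remaining index enzymes. Pck1 stood at 131 and 246 CPM in WT against 313 and 221 in the KO libraries, G6pc at 37.0 and 94.8 against 80.6 and 98.7, Tat at 123 and 177 against 265 and 132, Cbs at 46.9 and 68.6 against 102 and 59.9 and Glul at 75.5 and 113 against 141 and 92.6. Aass, with 19.2 and 38.4 CPM in WT against 49.1 and 44.1 in the KO libraries, did not overlap (log2 0.67, adjusted p = 0.933). The 3 members with a fold change below 0 were Sdsl, at 1.14 and 7.63 CPM in WT against 2.70 and 5.35 in the KO libraries (log2 -0.09 ± 0.99), Arg1, at 125 and 500 CPM against 379 and 231 (log2 -0.04 ± 0.59), and Prodh, at 23.3 and 24.4 CPM against 28.0 and 21.3 (log2 -0.02 ± 0.34). Arg1 was high in WT library 39, where it reached 36.02% of the WT hepatocyte level, and its log2 fold change was 1.12 without that library. That of Sdsl was 1.66 without it.

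In hepatocytes, where these genes are mainly expressed, the members' values leaned slightly upward under the KO label. None of the 36 members, and 0.0% of all genes, passed the adjusted test with edgeR, and DESeq2 called 0 members. At an unadjusted p under 0.05, 3 members were higher under the KO label (Ass1, Agxt and Ftcd), where 2.42% of all genes were, and 1 was lower (Pcx), where 4.69% were. The median log2 fold change was 0.19 against -0.02 over all genes, with 30 members above 0 and 6 below. The groups were separated upward in 12 members, against 16.4% of all genes, and downward in Pcx alone, against 23.2%. Hepatocyte markers had a median of 0.22, and Kupffer cell markers summed to 208 to 398 CPM in WT and 120 to 165 CPM under the KO label, with a median of -1.11. Summed EC markers (106 to 117 CPM in WT and 76.0 to 88.3 under the KO label) and HSC markers (239 and 156 to 223) were also lower without overlap. Summed hepatocyte markers (112978 to 119720 and 123918 to 135487), cholangiocyte markers (112 to 116 and 123 to 144) and lymphocyte markers (0.637 to 0.682 and 1.21 to 1.22) were higher without overlap. The part of these cell types in the members' values was not tested.

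The urea cycle enzymes did not move as a group in hepatocytes. Ass1 stood at 2819 and 2075 CPM in WT and at 4298 and 2849 CPM under the KO label (log2 0.61 ± 0.23, unadjusted p = 0.0368, adjusted p = 0.70 in edgeR's test). Cps1 stood at 1675 and 700.4 CPM against 881 and 316 (log2 -0.93 ± 0.54, adjusted p = 0.735), the lowest fold change among the members, and Arg1 at 1671 and 1105 CPM against 2304 and 1122 (log2 0.36 ± 0.34, adjusted p = 0.818). Cps1 and Arg1 overlapped between labels, and Ass1 was separated by a narrow margin. In gluconeogenesis, Pcx stood at 685 and 591 CPM in WT and at 455 and 314 CPM under the KO label (log2 -0.67 ± 0.22, unadjusted p = 0.0219, adjusted p = 0.70). Pck1, with 1980 and 3984 CPM against 3115 and 2255, and G6pc, with 702 and 1456 CPM against 1062 and 1095, had log2 fold changes of -0.11 ± 0.36 and 0.05 ± 0.37. The KO libraries of both lay between the WT libraries.

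Of the amino acid enzymes, Sds had the highest fold change in hepatocytes, with 173 and 129 CPM in WT against 345 and 168 CPM in the KO libraries (log2 0.81 ± 0.34, adjusted p = 0.701). Gls2 stood at 161 and 130 CPM against 331 and 134 (log2 0.72 ± 0.40, adjusted p = 0.729), and Got1 at 186 and 243 CPM against 439 and 231 (log2 0.68 ± 0.33, adjusted p = 0.708). All 3 overlapped between labels, with library KO 25 the highest. Gldc stood at 78.7 and 68.1 CPM against 71.6 and 39.2 (log2 -0.36 ± 0.28, adjusted p = 0.787). Tat stood at 2671 and 2013 CPM against 3121 and 1528, Tdo2 at 1056 and 1319 against 1339 and 1207, Mat1a at 4492 and 2476 against 3755 and 3059 and Bhmt at 1198 and 1969 against 2441 and 1459. These overlapped, with log2 fold changes of 0.04, 0.16, 0.04 and 0.34, while Hal, at 739 and 605 CPM against 983 and 749, and Cbs, at 810 and 791 against 1088 and 866, did not (log2 0.43 and 0.34).

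The members known to be zoned along the lobule did not separate by zone in hepatocytes. The 12 periportal members had a median log2 fold change of 0.29, 9 above 0 and 3 below. The pericentral members were Glul, at 122 and 151 CPM in WT against 100.5 and 191 CPM in the KO libraries (log2 0.17 ± 0.38), and Oat, at 291 and 484 CPM against 240 and 552 (log2 0.11 ± 0.48). In both genes the KO libraries were farther apart than the WT libraries, and each fold change turned negative without KO 41, at -0.44 and -0.70, or without WT 29, at -0.02 and -0.25. Aass, at 406 and 337 CPM against 376 and 200.5 (log2 -0.32 ± 0.30), was 0.03 without KO 41.

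For the question whether the label's effect differed between populations, an interaction was fitted to all 16 libraries and tested in 17214 genes. Against Kupffer cells the effect in ECs was lower in 22 members, with 1.96% of all genes called lower, and the effect in HSCs in 7, with 0.581% of all genes (Cps1, Fbp1, Tat, Agxt, Nags, Gnmt and Aass). Cps1 differed by log2 -4.21 between ECs and Kupffer cells and by -5.35 between HSCs and Kupffer cells. Against hepatocytes no member passed the adjusted test in edgeR for ECs or HSCs, where 0.0639% and 0.0697% of all genes were called lower. At an unadjusted p under 0.05, 31 members were lower in ECs and 28 in HSCs, against 6.28% and 4.96% of all genes, and DESeq2 called 28 and 24 members lower, against 3.04% and 1.82%. For Kupffer cells against hepatocytes edgeR and DESeq2 called none, where edgeR called 0.0116% of all genes higher. Cps1 and Pcx were higher and none lower at an unadjusted p under 0.05, against 5.16% and 3.02% of all genes. Between ECs and HSCs edgeR called none, where 0.029% of all genes were called lower. At an unadjusted p under 0.05 Aass was higher in ECs by log2 2.8 and Asl and Pcx lower, at -1.48 and -2.40, against 2.07% and 2.78% of all genes. DESeq2 called 2 members, of which 1 was lower, against 0.349% of all genes lower and 0.198% higher. The 22 became 0 without EC libraries WT 38, KO 6 or KO 46 or Kupffer cell library WT 31, 2 without Kupffer cell library KO 43, 6 without Kupffer cell library WT 39 and 6 to 9 without any 1 hepatocyte library, while 0.00535% to 0.268%, 0.488%, 0.927% and 0.635% to 0.731% of all genes were called lower. The 7 became 0 without Kupffer cell libraries WT 31 or KO 43 or HSC libraries KO 8 or WT 40, 14 and 15 without HSC libraries WT 32 and KO 20, and 2 to 3 without any 1 hepatocyte library, while 0.0429% to 0.21%, 0.869% and 1.12%, and 0.245% to 0.261% of all genes were called lower. These tests share libraries with one another and with the comparisons above.

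Beyond the members, 69 further genes of the same pathways were listed by function, with earlier results of these data known. In ECs 15 of 68 tested were called lower and none higher, against 1.97% and 0.116% of all genes, with a median of -1.72 against -0.01 over all genes. Enzymes of serine, glycine, lysine and one-carbon metabolism contributed 4 of 13, phenylalanine, tyrosine and tryptophan 4 of 10, urea cycle and nitrogen transport 4 of 9, gluconeogenesis and its control 2 of 12, and proline and branched-chain amino acids 1 of 12. Hepatic glycolysis (0 of 5, with 1 lower at an unadjusted p under 0.05) and sulfur amino acids (0 of 7, with 4 lower) had no call in edgeR, and DESeq2 called 0 and 3 of them. Among genes named after their values were seen, Prodh2, a hydroxyproline dehydrogenase, fell by 4.55 on the log2 scale, Slc25a15, the mitochondrial ornithine carrier, by 2.56, and Gcgr, the glucagon receptor, by 3.11. Widely expressed enzymes gave other values, such as 0.01 for the glutamate dehydrogenase Glud1 and 0.07 for the lactate dehydrogenase Ldha, neither past the test.

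In the other populations no gene of these lists passed the adjusted test in edgeR. In HSCs 23 of 66 were lower at an unadjusted p under 0.05 and DESeq2 called 18 lower, against 7.0% and 2.71% of all genes. In Kupffer cells 4 of 68 were higher at an unadjusted p under 0.05, against 3.35% of all genes, and DESeq2 called 0. In hepatocytes 6 of 69 were higher and 4 lower at that level, against 2.42% and 4.69% of all genes, and DESeq2 called 0. The lower ones included Pdk4, a kinase that restrains pyruvate oxidation, at log2 -1.51, named after its values were seen. Pdk4 was also among the 4 higher in Kupffer cells, at log2 2.44, with 1.41 and 5.35 CPM in WT and 12.4 and 24.2 CPM in the KO libraries.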

How the data were processed

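RNA of 16 libraries was analysed. Per the submitters' processing notes, reads were processed with Trimmomatic 0.32, HISAT2 2.1.0, GRCm38, HTSeq 0.9.1 and edgeR, and the authors deposited raw read counts per gene, 1 table per library. Library preparation is described in different ways in the series and sample texts, and the strand setting is not given in the sources used here. The 5 summary lines of each table were left out of library sizes and tests. Of the gene IDs, 99.1% were found in GENCODE M21 on GRCm38, from which coordinates, exonic lengths and overlaps were taken.

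CPM was computed over gene lines and RPKM over the union of exons. Labels were compared within each cell type, WT hepatocytes with each other WT population, and label effects between cell types by interaction, with edgeR 4.0.16 (R 4.3.3; low-count filter, TMM scaling, quasi-likelihood test, Benjamini-Hochberg adjustment over all genes tested, threshold 0.05). The SE printed with an edgeR log2 fold change was derived from the test. It was the absolute fold change divided by the square root of the test's F value. The code was tested on simulated data. Alternatives were DESeq2 1.42.0, other filters, other scalings, fits over all 16 libraries and leaving out each library. Scaling by library totals alone, and the singling out of Asl, Pcx and Prodh, were added after seeing the data. Of 12 hepatocyte markers listed, 11 were found by symbol. Members and lists were chosen with earlier results of these data known. Values in every library are given for 14 index members, for the 3 highest and 3 lowest members by fold change in each label comparison (mean of at least 1 CPM in 1 label), and for members reaching 50% of their WT hepatocyte level in another population. Genes enriched in hepatocytes were those with at least 10 CPM in WT hepatocytes and at least 8 times the Kupffer cell level in WT. Python 3.11.15 with matplotlib 3.10.9 made the plots. A few results on listed genes outside the members are not reported here.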

Additional observations from a re-analysis of the deposited data

Results flagged for a closer look

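The effect of the KO label differed between cell types by a test of the difference itself, an interaction term in edgeR's quasi-likelihood test with Benjamini-Hochberg adjustment over 17214 genes. Between ECs and Kupffer cells it differed in 22 members, lower in ECs in each, where 1.96% of all genes were called lower. Of the index members, G6pc differed by log2 -4.60, Pck1 by -4.48, Cps1 by -4.21, Hal by -3.89, Bhmt by -3.47, Tat by -3.32, Ass1 by -3.24 and Tdo2 by -2.73. Between HSCs and Kupffer cells it differed in 7 members, lower in HSCs in each, where 0.581% of all genes were called lower. Cps1 stood at log2 -5.35 and Tat at -3.94. Both counts changed with the library left out, as given above. Summed hepatocyte markers moved in the same directions: under the KO label they were lower in ECs and HSCs and higher in Kupffer cells than in WT. Their part in these differences was not tested.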

How the results depend on the processing

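No paired analysis was possible because no 2 groups have a library number in common. With 2 libraries a group, leaving out 1 leaves a lone sample that is assumed to vary like the others. Of the members called between labels, the 19 in ECs became 31 without adjustment, 30 with DESeq2, 32 without a filter and 11 with library totals as the only scaling, against 10.1%, 5.74%, 4.36% and 1.21% of all genes called lower, and 0 to 28 on leaving out 1 library, against 0.0126% to 3.84%. The 0 in HSCs became 28 without adjustment, 23 with DESeq2, 25 without a filter and 11 over all 16 libraries, against 7.0%, 2.71%, 2.45% and 1.02% of all genes called lower. Without adjustment the 0 in Kupffer cells became 5, all higher, as were 3.35% of all genes. The 0 in hepatocytes became 4, of which 1 was lower, against 2.42% of all genes higher and 4.69% lower. Without a filter the 0 in hepatocytes became 1, which was lower, as were 0.813% of all genes. For differences between label effects, the 0 of ECs against hepatocytes became 28 with DESeq2 and 31 without a filter, against 3.04% and 2.54% of all genes, and 0 to 4 on leaving out 1 library. The 0 of HSCs against hepatocytes became 24 and 27, against 1.82% and 2.07%, and 0 to 7. Kupffer cells against hepatocytes gave 1 without a filter, which was higher, as were 1.03% of all genes. ECs against HSCs gave 2 with DESeq2, of which 1 was lower, against 0.349% of all genes lower and 0.198% higher. Without a filter they gave 2, of which 1 was lower, against 0.57% lower and 0.465% higher. The 22 of ECs against Kupffer cells became 0 to 27 on leaving out 1 library, and the 7 of HSCs against Kupffer cells 26 with DESeq2 and 28 without a filter, against 3.89% and 3.44%, and 0 to 15. The mean share of the WT hepatocyte level fell with TMM scaling from 18.6% to 8.27% in WT ECs, 2.90% to 1.38% in ECs labelled KO, 1.34% to 0.764% in HSCs labelled KO, 7.92% to 4.72% in WT Kupffer cells and 12.9% to 7.56% in Kupffer cells labelled KO.

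Of 704 recomputed log2 fold changes of single members, 602 kept their direction and side of the threshold, 54 passed the test only under the alternative, 25 passed it only as reported and 23 turned. None of those that turned between labels passed the test as reported. On leaving out 1 library, Glul ran from -0.23 to 0.084 in ECs, -0.22 to 1.10 in HSCs, -0.0250 to 0.50 in Kupffer cells and -0.44 to 0.61 in hepatocytes (-0.02 without WT 29). Oat ran from -0.045 to 0.059 in ECs (0.052 without WT 34, 0.0092 without a filter), -0.70 to 0.63 in hepatocytes (-0.25 without WT 29) and, between hepatocytes and HSCs, -0.56 to 0.31. In Kupffer cells Arg1 ran from -0.67 to 1.12 (0.25 without KO 43), Sdsl from -0.85 to 1.66 (0.34 without KO 27) and Prodh from -0.19 to 0.12 (0.06 without WT 31), with Prodh at 0.044 with library totals, 0.020 with scaling on genes not enriched in hepatocytes and 0.00036 over all 16 libraries. Aass in hepatocytes ran from -0.75 to 0.029. With library totals as the only scaling, Aass and Glul between hepatocytes and ECs were -0.18 and -0.43. The cause of these changes was not tested.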

Other observations

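Some members have a counterpart that catalyses the same step and is used mainly outside hepatocytes, and these were compared by level per exon length in WT. Arg2, the mitochondrial arginase, stood at 188 ± 122 RPKM (SD, n = 2) in Kupffer cells and at 3.33, 7.87 and 1.42 RPKM on average in ECs, HSCs and hepatocytes. The difference between hepatocytes and Kupffer cells was log2 -6.14 (edgeR's quasi-likelihood test, adjusted p = 0.00153). Between the labels in Kupffer cells, Arg2 stood at 393 and 146 CPM in WT and at 411 and 540 CPM under the KO label (log2 0.72, adjusted p = 0.933). Mat2a, the S-adenosylmethionine synthetase of most tissues, stood at 58.4, 62.5 and 60.7 RPKM in ECs, HSCs and Kupffer cells and at 11.1 RPKM in hepatocytes. Its log2 differences were -1.04, -1.41 and -1.45, with adjusted p of 0.0321, 0.0100 and 0.00877. Pck2, the mitochondrial phosphoenolpyruvate carboxykinase, stood at 4.41, 4.12 and 1.93 RPKM in ECs, HSCs and Kupffer cells against 0.163 RPKM in hepatocytes. By RPKM, which is not corrected for composition, this was the reverse of Pck1. Exons of Arg2, Mat2a and Pck2 overlap those of genes on the opposite strand. With the strand setting not given, the values of these genes are less certain.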
